A study of Rattus norvegicus with 38 samples.

Results

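The genes described here are 48 rat genes whose RNA was most abundant in the healthy left ventricle, chosen from 24057 genes measured across 5 regions of the heart. A gene was kept when its mean in the healthy left ventricle was at least 5 TPM (a transcript level corrected for length and sequencing depth) and when that mean plus 1 was at least 2.5 times the highest mean of the other healthy regions plus 1. The members were therefore chosen by measured values, and their levels in the healthy libraries are given as a description. The files pair no gene with a symbol, and members are called here by their order in that ratio, from member 1 (the highest) to member 48. Member 1 is ENSRNOG00000030848 and member 2 is ENSRNOG00000020955.

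RNA was sequenced in 38 libraries of heart tissue from male Sprague-Dawley rats aged 10 weeks. The regions were the left ventricle (LV), the left atrium (LA), the right atrium (RA) and the inferior and superior parts of the sinoatrial node (iSAN and sSAN; the healthy node libraries are titled SB and ST). Each region had 4 libraries labelled failing and 4 labelled healthy, except the healthy left ventricle, which had 2. The protocol on failing and healthy libraries alike describes pups whose ascending aorta was constricted at 1 week of age and a later thickening of the left ventricle, while the treatment of healthy rats is not stated there. The titles end in codes (LV_0507 and LA_0507, for example) shared by several regions, and the values of a group are given here in the order of these codes. Nothing in the labels makes such a code an animal, so p-values cover the spread among these libraries alone. Failing and healthy libraries have 0 codes in common, and a batch that follows the code cannot be told apart from health state.

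The ventricle is the pumping chamber, and its muscle cells use a contractile and electrical programme that differs from that of the atria, which receive blood and release natriuretic hormones. The sinoatrial node is a small region of specialised muscle in the right atrium that starts each heartbeat and contracts weakly. Ventricular muscle is known for its own forms of myosin light and heavy chains, for transcription factors that keep the atrial programme low, and for a return to fetal muscle genes under pressure load. With no symbols, none of the members can be placed in these groups here, and the labelled tissues were not checked against marker genes. In tissue samples, fewer cells of a type and less RNA per cell cannot be told apart.

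Library totals lay between 17406473 and 27355777 estimated counts. One library stood apart: in the failing left ventricle library LV_0507, the 10 most abundant genes took 71.4% of the TPM, against 41.8% to 59.9% in the other LV libraries. In that library 85.2% of 6289 genes measured in the ventricle had their lowest TPM among the failing LV libraries. Counts of members that it moves are given with and without it, an alternative chosen after seeing the data.

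In healthy hearts the 48 genes together held 27924 and 31691 TPM in the 2 left ventricle libraries, or 2.79% and 3.17% of the TPM of each. In the failing left ventricle they held 32363, 27561, 16525 and 27925 TPM, the lowest value being that of LV_0507. In the 32 libraries of the other regions the sum lay between 1316 and 3618 TPM, so no LV library overlapped with them. A pair of genes carried most of the ventricular sum: members 1 and 2 made up 60.2% to 66% of it in the LV libraries and 0.592% to 7.98% elsewhere.

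**Figure D1:**
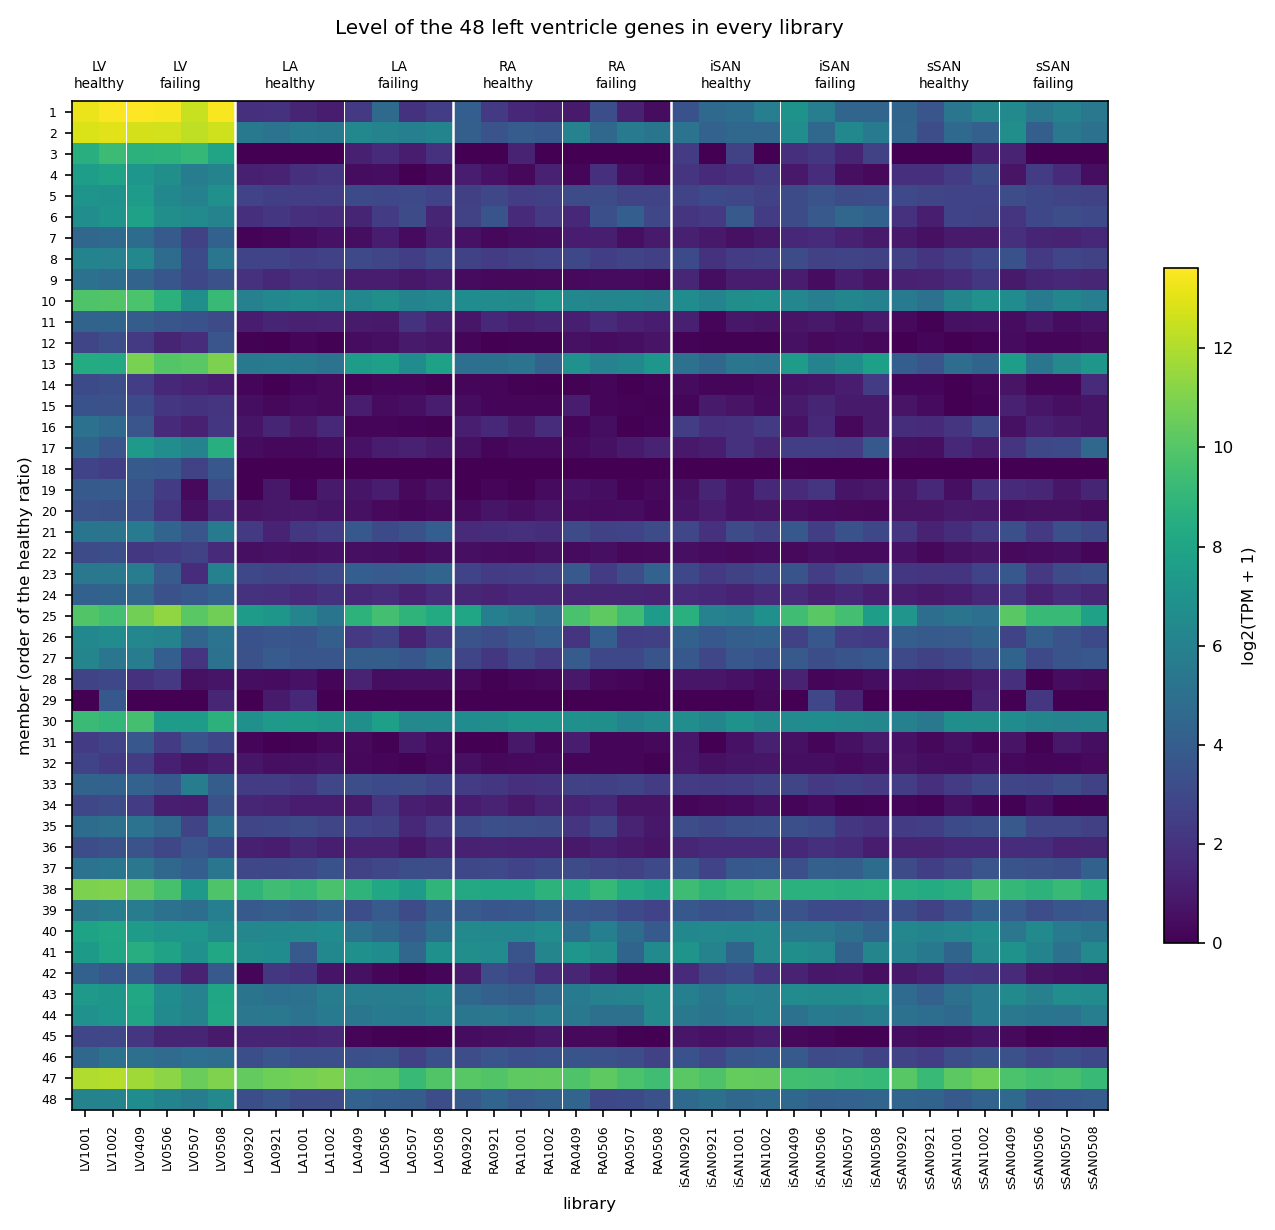
Heat map of log2(TPM + 1) for the 48 members (rows, in the order of the healthy ratio) in 38 libraries (columns, named by region and code and grouped by region and health state, with white lines between groups). The LV columns on the left are brightest, and members 1 and 2 at the top reach from 5160 to 12609 TPM there.

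The members ranged widely in level. In the healthy left ventricle 16 had a mean above 100 TPM, 19 lay between 10 and 100 and 13 between 5 and 10. The healthy ratio was at least 100 for 3 members, between 10 and 100 for 5, between 5 and 10 for 18 and between 2.5 and 5 for 22, with a median of 5.44. The region with the next highest healthy mean was the inferior node for 19 members, the left atrium for 17, the superior node for 8 and the right atrium for 4. Both healthy LV libraries lay above all 16 other healthy libraries for 47 members. The exception was member 29, listed at 0 in one healthy LV library and at 12.3 TPM in the other. The rule chose members by these same libraries and so favours such a count, which was not made for all genes.

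Near the ratio threshold of 2.5, members 46, 47 and 48 had ratios of 2.58, 2.58 and 2.55, and the nearest genes left out had 2.46, 2.44 and 2.43. Near the level threshold, members 32, 31 and 18 had healthy LV means of 5.01, 5.11 and 5.202 TPM, and the nearest genes left out with a sufficient ratio had 4.40, 4.17 and 4.08 TPM. A further 11 genes passed the ratio but lay under 5 TPM.

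Member 1 stood at 9435 and 11763 TPM in the healthy left ventricle and at 12609, 11648, 5659 and 11691 TPM in the failing one. In the left atrium it was at 2.68, 2.82, 1.62 and 1.06 TPM in healthy and at 4.03, 24.9, 2.94 and 4.59 TPM in failing libraries, and in the right atrium at 16.04, 4.04, 1.88 and 1.51 TPM in healthy and at 1.01, 8.70, 1.42 and 0.354 TPM in failing libraries. The node libraries were above most atrial ones, at 9.93, 24.4, 29.2 and 56.8 TPM in the healthy inferior part, 125, 55.3, 20.5 and 20.9 TPM in the failing inferior part, 20.3, 11.2, 40.3 and 71.5 TPM in the healthy superior part and 90.7, 42.8, 63.4 and 42.9 TPM in the failing superior part. No LV library of member 1 came near a library of another region, and LA_0506 and RA_0506 were the highest failing libraries of their regions.

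Member 2 stood at 7363 and 8230 TPM in the healthy left ventricle and at 6912, 6540, 5160 and 6267 TPM in the failing one. In the left atrium it was at 43.7, 35.6, 50.4 and 44.2 TPM in healthy and 79.8, 68.4, 58.7 and 69.5 TPM in failing libraries, and in the right atrium at 16.5, 10.3, 14.3 and 12.6 TPM in healthy and 64.2, 23.3, 49.3 and 37.6 TPM in failing libraries. In both atria every failing library was above every healthy one. Its inferior node levels were 35.2, 18.1, 23.6 and 21.3 TPM in healthy and 103, 22.2, 80.5 and 48.01 TPM in failing libraries, and its superior node levels were 20.5, 8.21, 24.4 and 17.1 TPM in healthy and 106, 16.6, 43.1 and 33.0 TPM in failing libraries, where the states overlapped.

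The TPM of member 2 divided by that of member 1 was 0.536 to 0.912 in the 6 LV libraries. It was 0.239 to 3.93 in the 16 node libraries, a range that includes that of the ventricle. In the left atrium it was 12.6 to 41.5 in healthy and 2.74 to 20.0 in failing libraries, and in the right atrium 1.03 to 8.34 in healthy and 2.68 to 106 in failing libraries. The atrial ranges thus lay above the ventricular one and overlapped with that of the node, except in the healthy left atrium.

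Member 3 showed a large ratio on few reads. It was at 374 and 636 TPM in the healthy and at 439, 454, 529 and 245 TPM in the failing left ventricle, from 295, 460, 354, 424, 510 and 168 estimated counts, since its relative length was the shortest of the members. It was listed at 0 in all 4 failing right atrium libraries. Elsewhere outside the ventricle it stayed at or under 5.38 TPM, or 3.87 estimated counts.

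Member 18 was also close to a ventricle-only gene, at a far lower level. It stood at 5.66 and 4.74 TPM in the healthy and at 13.4, 11.8, 5.46 and 12 TPM in the failing left ventricle. It was listed at 0 in every superior node library and in every failing right atrium library, and its highest value outside the ventricle was 0.0402 TPM, from 1.99 estimated counts. Of the 48 members, 8 were listed at 0 in at least 1 of the 32 libraries outside the ventricle and 3 in at least 16 of them.

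**Figure D2:**
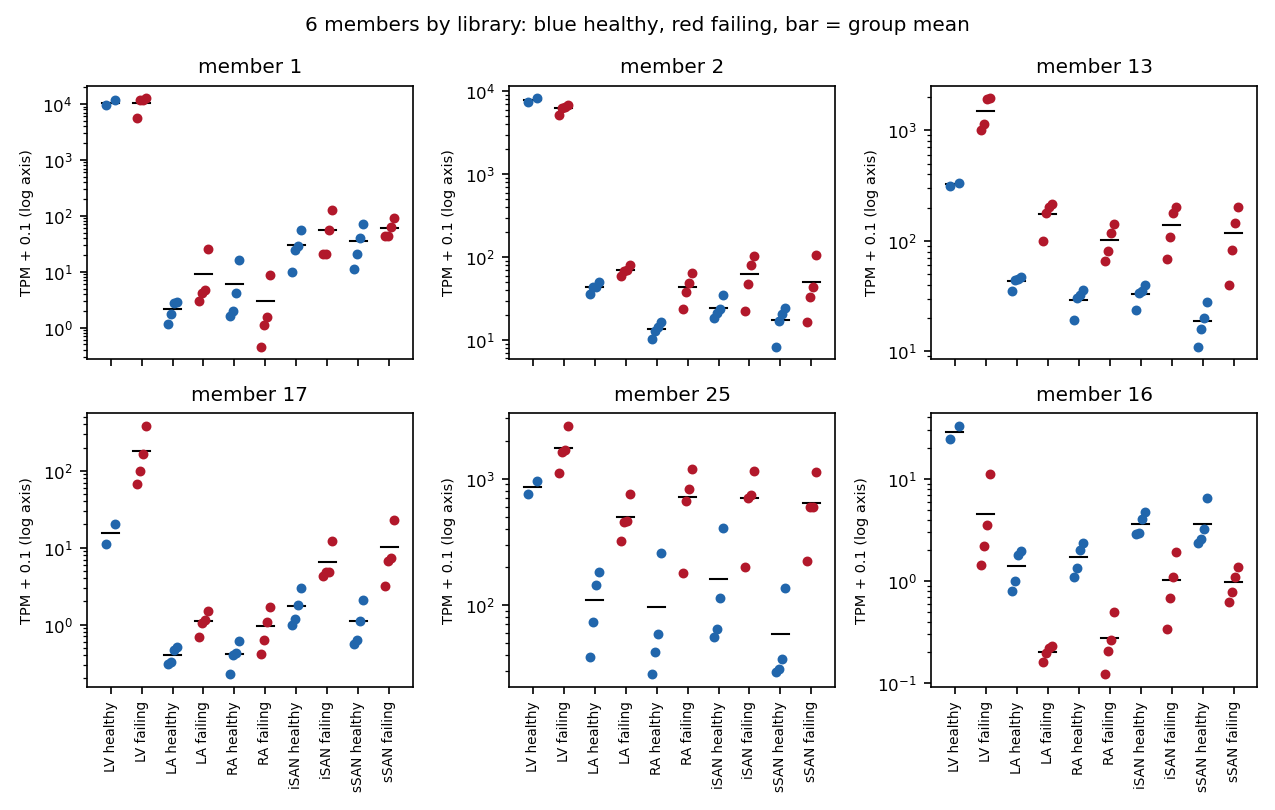
TPM + 0.1 on a log axis for members 1, 2, 13, 17, 25 and 16 in 10 groups of region and health state, with 1 point per library (blue healthy, red failing) and the group mean as a bar. Members 1 and 2 are set apart from every other region in both states, members 13, 17 and 25 are higher in failing than in healthy libraries of most regions, and member 16 is lower.

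The rule used healthy libraries alone, so the failing libraries give the regional difference in libraries that did not choose the members. The same ratio and level, computed from the failing means, were met by 30 of the 48 members (62.5%), against 0.232% of 20289 genes with a value (47 genes, of which 63.8% were members). The failing ratio was at least 2.5 for 35 members, at least 1.5 for 46 and under 1 for 1, member 29, at 0.481. Its median was 3.26 over the members and 0.479 over 10300 genes with a mean of at least 5 TPM in some group. For 39 members the failing ratio was lower than the healthy one, and the same count was not made for all genes. The ratio is on unscaled TPM, where the failing ventricle differed from the healthy one by a median of -0.30 over all genes (log2). A lower second value is also what selection on the first favours. The size of either part was not tested.

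**Figure D3:**
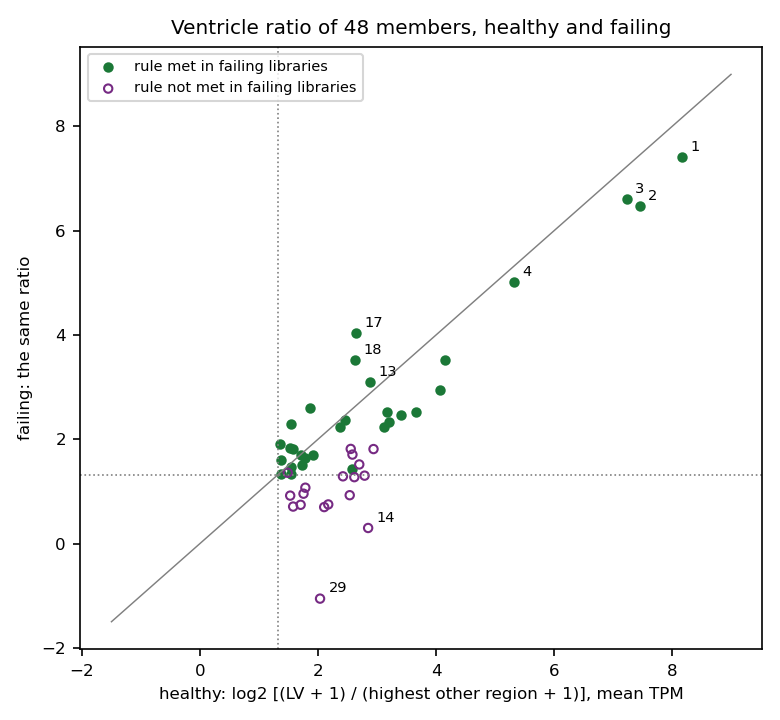
Ratio of the left ventricle to the highest other region (means of TPM + 1, log2) in healthy libraries (x axis) and failing libraries (y axis) for the 48 members, with the diagonal in grey and the threshold of 2.5 dotted. Filled points are the 30 members that met the rule in failing libraries, and most points lie under the diagonal.

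On unscaled TPM, all 4 failing LV libraries lay above all 16 other failing libraries for 28 of the 48 members, against 0.399% of the 20289 genes. For the other members at least 1 failing library of another region reached into the range of the failing ventricle, whose lowest library was LV_0507 for 32 of the 48. On TPM without LV_0507, the other 3 failing LV libraries lay above the 16 other failing libraries for 39 members, against 0.69% of genes. Without it 32 members met the rule in failing means, against 0.256% of genes.

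With estimated counts scaled by the trimmed mean of M values (TMM), 47 of the 48 members passed the filter on low counts in each comparison of the failing left ventricle with another failing region, and member 29 did not. A member that passed that filter only through the ventricle, where it is high, had to differ, so the counts describe the list and support nothing beyond it. The 4 comparisons share the failing LV libraries and are given side by side. At an adjusted p under 0.05 in edgeR's quasi-likelihood test, 44 members were higher in the ventricle than in the left atrium, where 5.86% of all genes tested were. Against the right atrium 46 were higher, with 5.43% of all genes. Against the inferior node 45 were higher, with 13.2% of all genes, and against the superior node 45, with 7.24%. No member was lower in the ventricle, against 4.91%, 4.56%, 12.2% and 7.69% of all genes in the same order.

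The differences were large on the log2 scale of scaled counts. Their medians over the 47 members were 3.66 against the left atrium, 3.99 against the right atrium, 3.72 against the inferior node and 3.43 against the superior node, while the medians over all genes tested were -0.02, -0.02, -0.05 and -0.04. All 47 differed by at least 2-fold in each comparison, and 43, 45, 46 and 44 by at least 4-fold. These counts were not made for all genes, and members that passed the filter only through the ventricle had to differ. The smallest differences were 1.41 for member 27 against the left atrium, 1.92 for member 38 against the right atrium, 1.87 for member 14 against the inferior node and 1.5 for member 38 against the superior node.

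For member 1, whose values are given above, the log2 difference was 11.19 (SE 0.91, adjusted p = 4.9e-04) against the left atrium and 12.80 (SE 1.08, adjusted p = 3.1e-04) against the right atrium by edgeR's quasi-likelihood test. Against the nodes it was smaller, at 8.69 (SE 0.93, adjusted p = 6.8e-04) for the inferior and 8.45 (SE 0.45, adjusted p = 7.6e-05) for the superior part. Member 2 gave 7.56, 8.19, 7.92 and 8.15 against the left atrium, right atrium, inferior node and superior node, with edgeR adjusted p-values from 1.6e-04 to 5.2e-04. The order of regions for member 1, atria lowest, was thus not seen for member 2.

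Member 4 stood at 201 and 229 TPM in the healthy and at 142, 106, 53.2 and 67.7 TPM in the failing left ventricle. In failing libraries it was at 0.375, 0.442, 0.0365 and 0.233 TPM in the left atrium, 0.185, 2.63, 0.445 and 0.131 TPM in the right atrium, 0.934, 2.32, 0.464 and 0.269 TPM in the inferior node and 0.674, 4.32, 2.13 and 0.437 TPM in the superior node. The libraries LA_0506, RA_0506, iSAN0506 and sSAN0506 were the highest of those groups. Its log2 differences were 9.38, 7.76, 7.92 and 6.58 in the same order, all with an edgeR adjusted p under the threshold.

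For members with a group at 0 a fold can only be bounded, with a floor of 3 counts per library. Member 3 was at least 127-fold higher in the failing left ventricle than in the failing right atrium. Member 18 was at least 197-fold higher than in the failing right atrium and at least 203-fold higher than in the failing superior node.

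Member 10 shows how LV_0507 bears on these comparisons. It stood at 927 and 960 TPM in the healthy left ventricle and at 854, 427, 108 and 584 TPM in the failing one, the 108 TPM being that of LV_0507. In the failing libraries of the other regions it lay between 46.6 and 107 TPM, so that on TPM LV_0507 barely cleared them. On TMM-scaled counts (CPM) member 10 was at 448.2 in LV_0507 and at most at 97.9 in those libraries. On scaled counts its log2 differences were 3.28, 3.44, 3.91 and 3.62 against the left atrium, right atrium, inferior node and superior node, with edgeR adjusted p-values from 6.0e-04 to 0.0013. Without LV_0507 they were 3.49, 3.65, 4.14 and 3.83, with edgeR adjusted p-values from 9.0e-05 to 4.2e-04.

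Of the members tested 4, namely 14, 23, 27 and 28, missed the threshold in at least 1 of these comparisons. Member 23 stood at 42.8 and 43.2 TPM in the healthy and at 51.4, 13.95, 2.34 and 62.4 TPM in the failing left ventricle, and at 15.6, 14.3, 15.6 and 21.1 TPM in the failing left atrium, so that the groups overlapped. Its log2 difference from the left atrium was 1.47 (SE 0.54, edgeR adjusted p = 0.12), and without LV_0507 it was 1.81 (adjusted p = 0.0093). Against the right atrium it was 1.98 (SE 0.66, edgeR adjusted p = 0.095), and 2.32 without that library (adjusted p = 0.022).

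Member 27 stood at 72.9 and 39.6 TPM in the healthy and at 53.6, 15.8, 3.36 and 33.1 TPM in the failing left ventricle, against 15.1, 15.1, 11.5 and 19.6 TPM in the failing left atrium. Its log2 difference from the left atrium was 1.41 (SE 0.44, edgeR adjusted p = 0.077), and 1.70 (adjusted p = 0.011) without LV_0507. Member 28, at 2.82, 3.73, 0.549 and 0.723 TPM in the failing left ventricle, missed the threshold against the left atrium and both node parts, with log2 differences of 2.37, 2.83 and 2.41 and edgeR adjusted p-values of 0.081, 0.056 and 0.15. In the failing left atrium and both failing node parts its highest libraries were LA_0409, iSAN0409 and sSAN0409, at 1.56, 1.58 and 2.62 TPM.

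Member 14 missed the threshold against both node parts. It stood at 7.22 and 8.57 TPM in the healthy and at 4.57, 1.84, 1.48 and 1.10 TPM in the failing left ventricle. In the inferior node it was at 0.317, 0.164, 0.161 and 0.293 TPM in healthy and at 0.612, 0.694, 1.13 and 4.14 TPM in failing libraries, and iSAN0507 and iSAN0508, at 1.13 and 4.14 TPM, lay within the range of the failing ventricle. The log2 difference of the failing ventricle from the failing inferior node was 1.87 (SE 0.69, edgeR adjusted p = 0.076), and without iSAN0508 it was 2.77 (adjusted p = 0.022). From the failing superior node, where sSAN0508 was at 2.17 TPM, the difference was 2.57 (SE 0.88, edgeR adjusted p = 0.08).

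The comparisons of failing with healthy libraries share their healthy libraries with the rule. A member had to be high in the healthy left ventricle and low in the other healthy regions, which favours a lower value in the failing ventricle and a higher one in failing libraries elsewhere. The counts are therefore read only against those of all genes.

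In the left ventricle no member passed in edgeR's quasi-likelihood test, as 0% of the 13670 genes tested did in either direction. At an unadjusted p under 0.05, 4 of the 47 members tested were higher and 3 lower in the failing ventricle, against 7.17% and 3.88% of all genes. DESeq2 called 4 members (13, 17 and 18 higher, 16 lower) with 1.5% of all genes higher and 0.366% lower, and an edgeR fit of all 38 libraries called those and member 38, which was lower, with 11.5% and 7.58% of all genes. The spread between LV libraries was large: the biological coefficient of variation of the fit was 0.401, and 0.273 without LV_0507.

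The direction over the list depended on the scaling of this group. Of the 47 members tested on TMM-scaled counts, 20 had a positive and 27 a negative difference, with a median of -0.27 on the log2 scale. On TPM without further scaling, 10 of 48 were positive, the median was -0.77 and the median over all genes was -0.30. By library, the median log2 difference from the healthy LV mean was 0.01, -0.74, -1.37 and -0.34 on TPM and 0.02, -0.14, -0.06 and -0.66 on TMM-scaled counts for LV_0409, LV_0506, LV_0507 and LV_0508. LV_0507 was thus the lowest on TPM and near 0 after scaling, where LV_0508 was the lowest.

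**Figure D4:**
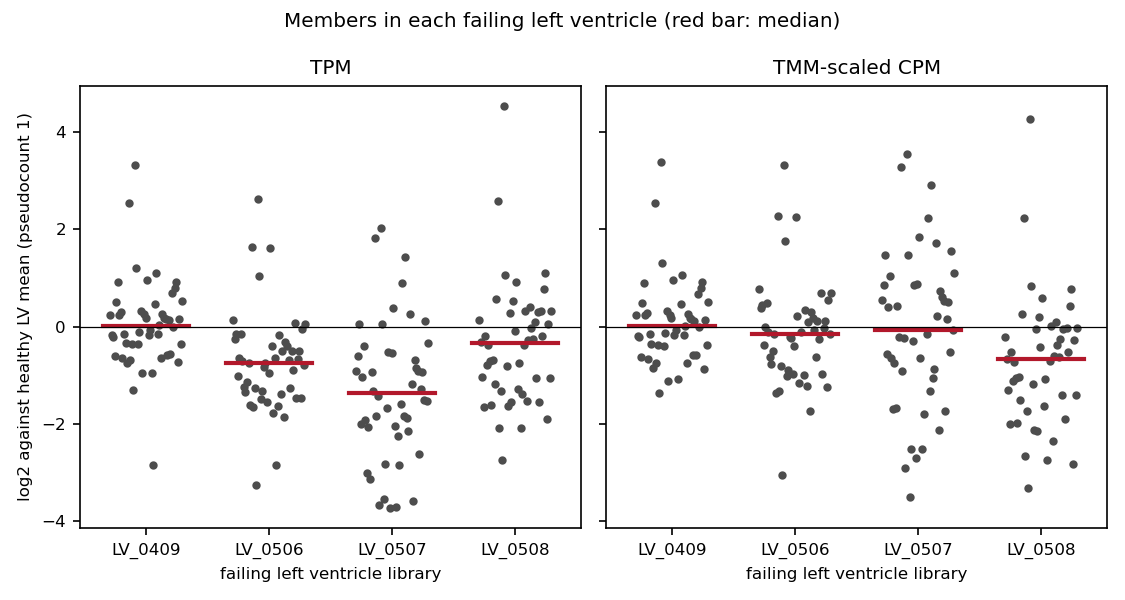
Log2 difference of each member from the mean of the 2 healthy LV libraries (pseudocount 1) in the 4 failing LV libraries, on TPM (left) and on TMM-scaled CPM (right), with the median as a red bar. The median of LV_0507 is -1.37 on TPM and -0.06 after scaling, and member 17 is the highest point of every library on both scales.

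Member 17 stood out above this spread. It was at 20.1 and 10.9 TPM in the healthy and at 163, 100, 66.8 and 382 TPM in the failing left ventricle, with no overlap, LV_0507 included. The log2 difference was 3.71 (SE 0.48, edgeR adjusted p = 0.17), and DESeq2 gave 3.70 (adjusted p = 4.2e-15). Member 13 stood at 333 and 316 TPM in the healthy and at 1897, 1007, 1145 and 1939 TPM in the failing left ventricle, again with no overlap, and its log2 difference was 2.64 (SE 0.52, edgeR adjusted p = 0.29; DESeq2 adjusted p = 3.2e-08). Member 18, whose TPM values are given above, had 1.42 (SE 0.30, edgeR adjusted p = 0.33; DESeq2 adjusted p = 0.0055). On TPM its level in LV_0507 lay between its healthy ones. On TMM-scaled counts (CPM) member 18 was at 47.12 in LV_0507 and at 17.03 and 15.61 in the healthy LV libraries. Every failing LV library, from 29.85 to 57.8, was above both healthy ones on that scale.

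Member 16, ENSRNOG00000026679, had the lowest log2 difference of failing minus healthy among the members tested in the ventricle. It stood at 33.0 and 24.3 TPM in the healthy and at 10.98, 2.13, 1.35 and 3.44 TPM in the failing libraries, with no overlap. The log2 difference was -2.47 (SE 0.55, edgeR adjusted p = 0.35; DESeq2 adjusted p = 0.0045). Members 1 and 2, which carried most of the ventricular signal, had log2 differences of 0.37 (edgeR adjusted p = 0.69) and 0.20 (edgeR adjusted p = 0.86), and both signs turned on unscaled TPM, to -0.09 and -0.33.

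In the other regions members moved in both directions, in shares that can be set beside those of all genes. In the failing left atrium 16 of the 43 members tested were higher and 10 lower in edgeR's test, against 24.3% and 23.9% of all genes. In the right atrium 12 of 40 were higher and 4 lower, against 24.5% and 23% of all genes. In the inferior node 4 of 42 were higher and 10 lower, against 19.5% and 19%. In the superior node 6 of 41 were higher and 3 lower, against 8.92% and 4.56%. Single libraries moved these counts, and the shares of all genes in those fits are not given here. In the right atrium 2 members were lower without RA_0507, RA_0921 or RA_1001, and in the inferior node 7 were higher without SB_0921. In the superior node 2 were higher and 1 lower without ST_0920, 3 and 3 without sSAN0508, and 9 and 5 without sSAN0506.

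On unscaled log2(TPM + 1), tested with limma, the shares of all genes were themselves uneven. In the left atrium 11 members were higher and 10 lower of 38, against 13% and 34.1% of all genes, and in the right atrium 8 and 7 of 34, against 11.8% and 37.3%. Of 43 members in the inferior node 3 passed as higher and 8 as lower, against 13.3% and 6.64%, and of 39 in the superior node 6 and 1, against 7.31% and 0.572%.

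The median log2 differences over the members tested were 0.42 in the left atrium, 0.24 in the right atrium, -0.15 in the inferior node and 0.08 in the superior node, against 0.01, 0.02, 0.01 and -0.01 over all genes. Across the 4 regions, 18 members were higher in at least 1 and lower in none, 12 were lower in at least 1 and higher in none, and 0 were both, where 32.7%, 30.4% and 0.357% of 14827 genes tested in at least 1 region were. A further 14 were tested and passed nowhere, and 4 were tested in none of the 4. Members 1 and 2 were both higher in the failing left atrium, with log2 differences of 2.27 (edgeR adjusted p = 0.018) and 0.88 (edgeR adjusted p = 0.0019), and member 2 also in the right atrium, with 1.97 (edgeR adjusted p = 9.6e-04). Member 1 missed the threshold in the left atrium without LA_1001 (2.17, adjusted p = 0.05) or LA_1002 (2.07, adjusted p = 0.053).

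Of the 38 members tested in all 4 regions, 3 (members 13, 17 and 43) were higher in all 4, where 6.17% of 13670 genes were. Only 1, member 16, was lower in all 4, where 3.64% of genes were. Both counts are near the shares of all genes, and these members are described as single genes.

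**Figure D5:**
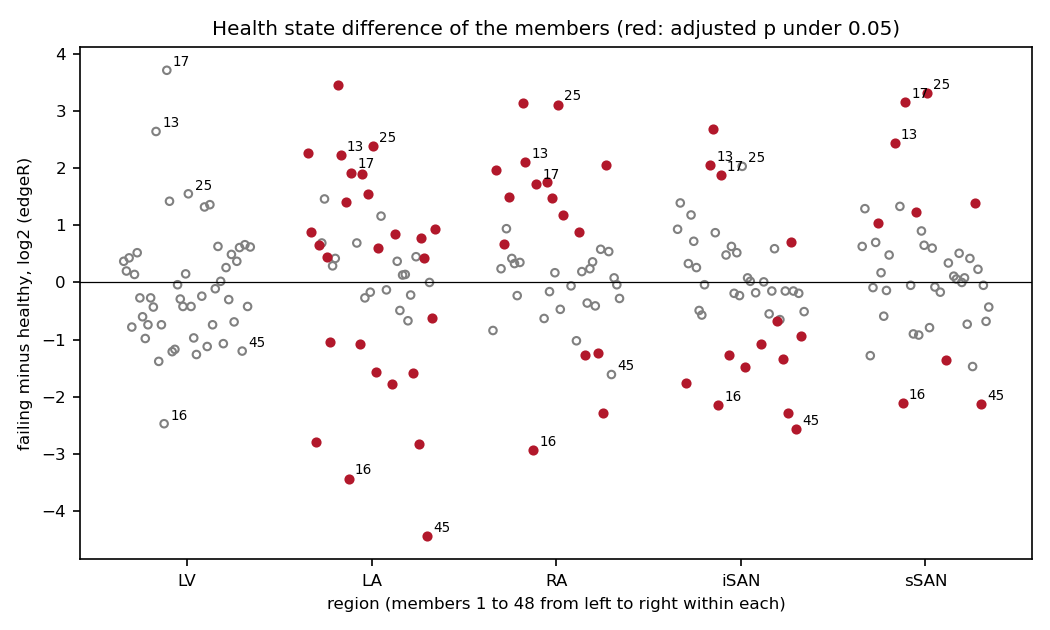
Log2 difference of failing minus healthy libraries by edgeR for each member tested, in 5 regions, with members in order from left to right within each region and red points at an adjusted p under 0.05. The LV column holds no red point, members 13 and 17 are high in every region, and member 16 is low in every region.

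On TPM, counts of members whose failing libraries all lay above or all below the healthy ones can be set beside the same share of all genes. In the ventricle 3 members were above and 17 below, against 3.77% and 13.7% of genes with a value, and without LV_0507 5 were above and 17 below, against 8.17% and 14.1%. Unscaled TPM differed there by a median of -0.30 over all genes (log2), and these counts were not made on TMM-scaled counts. On that scale member 2, below on TPM, overlapped between states in the ventricle, while member 16 stayed below. On TPM in the left atrium 10 were above and 11 below, against 9.43% and 24.2%, and in the right atrium 7 and 7, against 8.49% and 25.5%. Of the node parts, the inferior had 6 above and 10 below, against 10.6% and 5.75%, and the superior 7 and 4, against 11.7% and 1.38%.

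Member 13 was at 44.9, 47.2, 44.5 and 35.2 TPM in healthy and 177, 202, 99.1 and 217 TPM in failing left atria, and at 30.2, 31.99, 35.8 and 19.2 TPM in healthy and 118, 65.6, 81.3 and 143 TPM in failing right atria. Its inferior node levels were 33.5, 23.5, 40.2 and 35.1 TPM in healthy and 178, 68.5, 109 and 204 TPM in failing libraries, and its superior node levels were 15.7, 10.9, 28.03 and 20.0 TPM and 202, 40.0, 82.8 and 145 TPM. The states did not overlap in any region, and RA_0506, iSAN0506 and sSAN0506 were the lowest failing libraries of their regions. The log2 differences were 2.22, 2.10, 2.05 and 2.44 in the left atrium, right atrium, inferior node and superior node, with edgeR adjusted p-values of 1.6e-04, 7.0e-04, 0.0042 and 0.016. In the superior node the adjusted p was 0.052 without ST_0920.

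Every failing library of member 13 was thus above every healthy one within each of the 5 regions, the ventricle included. A change in its regional difference between states was not tested. The failing ventricle exceeded the failing left atrium by a log2 difference of 4.08 and the other 3 regions by 4.79, 4.70 and 4.74, with edgeR adjusted p-values from 6.3e-04 to 0.0013. Its failing ratio, 8.57, was above its healthy one, 7.41.

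Member 17 was at 0.361, 0.225, 0.210 and 0.407 TPM in healthy and 0.595, 1.03, 1.41 and 0.960 TPM in failing left atria, and at 0.505, 0.126, 0.306 and 0.320 TPM in healthy and 0.318, 0.522, 0.980 and 1.60 TPM in failing right atria. Its inferior node levels were 0.890, 1.07, 2.84 and 1.72 TPM in healthy and 4.68, 4.71, 4.15 and 12.2 TPM in failing libraries, and its superior node levels were 0.521, 0.463, 1.99 and 1.02 TPM and 3.10, 6.68, 7.20 and 22.8 TPM. The states overlapped only in the right atrium, and LV_0508, RA_0508, iSAN0508 and sSAN0508 were the highest failing libraries of their regions. The log2 differences were 1.92, 1.73, 1.88 and 3.16 in the left atrium, right atrium, inferior node and superior node, with edgeR adjusted p-values of 0.0021, 0.037, 0.0094 and 0.024. In the superior node the difference was 2.38 without sSAN0508 (adjusted p = 0.05), and it also missed the threshold without ST_0920 (2.90, adjusted p = 0.069), ST_0921 (2.98, adjusted p = 0.053) or ST_1002 (3.10, adjusted p = 0.058). Its failing ratio, 16.3, was above the healthy one, 6.28.

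Member 43 was higher in all 4 regions outside the ventricle as well. It stood at 36.6, 30.7, 33.1 and 51.7 TPM in healthy and 50.9, 54.5, 53.8 and 68.5 TPM in failing left atria, and at 23.4, 17.1, 15.4 and 23.9 TPM in healthy and 50.6, 59.4, 66.1 and 92.3 TPM in failing right atria. The left atrial groups overlapped and the right atrial ones did not. Its log2 differences were 0.78 in the left atrium, 2.05 in the right atrium, 0.71 in the inferior node and 1.39 in the superior node, with edgeR adjusted p-values of 0.0085, 4.3e-04, 0.0063 and 0.013. In the ventricle it was at 165 and 149 TPM in healthy and 273, 98.9, 64.0 and 268 TPM in failing libraries, which overlapped.

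Member 25 was among the more abundant members and differed between health states in most regions. It stood at 958 and 758 TPM in the healthy and 1675, 2621, 1117 and 1622 TPM in the failing left ventricle, and edgeR gave a log2 difference of 1.55 (SE 0.55, adjusted p = 0.42). In the left atrium it was at 181, 144, 72.8 and 38.2 TPM in healthy and 450, 763, 460 and 323 TPM in failing libraries, and in the right atrium at 256, 58.7, 42.2 and 28.1 TPM and 831, 1202, 665 and 180 TPM. LA_0920 and RA_0920 were the highest healthy libraries of the atria, and RA_0920 exceeded the failing library RA_0508.

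In the inferior node member 25 was at 404, 63.8, 55.5 and 114 TPM in healthy and 699, 1143, 748 and 198 TPM in failing libraries, and in the superior node at 137, 29.04, 36.9 and 30.9 TPM and 1134, 599, 599 and 222 TPM. SB_0920 and ST_0920 were again the highest healthy libraries. The log2 differences were 2.39, 3.11, 2.03 and 3.31 in the left atrium, right atrium, inferior node and superior node, with edgeR adjusted p-values of 0.0019, 0.0076, 0.051 and 0.016. The difference in the inferior node therefore missed the threshold.

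Member 16 was at 0.691, 1.69, 0.899 and 1.89 TPM in healthy and 0.120, 0.131, 0.0978 and 0.0627 TPM in failing left atria, and at 1.23, 1.91, 0.990 and 2.27 TPM in healthy and 0.165, 0.400, 0.0221 and 0.107 TPM in failing right atria. Its inferior node levels were 4.61, 2.76, 2.83 and 3.97 TPM in healthy and 0.582, 1.84, 0.242 and 0.986 TPM in failing libraries, and its superior node levels were 2.45, 2.25, 3.16 and 6.37 TPM and 0.526, 1.28, 1.00 and 0.681 TPM. Every failing library was under every healthy one in each of the 4 regions, as in the ventricle. The log2 differences were -3.43, -2.93, -2.15 and -2.11 in the left atrium, right atrium, inferior node and superior node, with edgeR adjusted p-values of 2.9e-04, 0.0018, 0.006 and 0.016.

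Member 45, ENSRNOG00000008210, fell past the threshold in 3 regions. It stood at 1.64, 1.62, 1.55 and 1.73 TPM in healthy and 0.148, 0.0461, 0 and 0.0686 TPM in failing left atria, where the highest failing library held 16.9 estimated counts. In the inferior node it was at 0.798, 0.591, 0.753 and 1.06 TPM in healthy and 0.238, 0.175, 0.0756 and 0.0564 TPM in failing libraries, and in the superior node at 0.432, 0.333, 0.405 and 0.688 TPM and 0.252, 0.0764, 0.117 and 0.0378 TPM. None of these groups overlapped. By edgeR the log2 difference in the left atrium was -4.43 (SE 0.60, adjusted p = 5.1e-04). It was -2.56 for the inferior (SE 0.48, edgeR adjusted p = 0.0042) and -2.13 for the superior node (SE 0.46, edgeR adjusted p = 0.023). In the right atrium the difference was -1.61 (SE 0.70, edgeR adjusted p = 0.083), and in the ventricle -1.20 (SE 0.56, edgeR adjusted p = 0.47). In these regions too the libraries did not overlap, with failing values of at most 0.278 TPM and healthy ones of at least 0.344 TPM in the right atrium, and of at most 3.48 and at least 6.36 TPM in the ventricle.

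Some members differed between codes more than between health states. Member 41 was lowest in LA_1001, RA_1001, SB_1001 and ST_1001 among the healthy libraries outside the ventricle, at 12.8, 10.6, 19.6 and 20.0 TPM, while the other healthy libraries there lay between 43.7 and 131 TPM. Among the failing libraries it was lowest in LV_0507, at 117 TPM, and in LA_0507, RA_0507, iSAN0507 and sSAN0507, at 21.2, 19.9, 19.5 and 32.7 TPM, while the others outside the ventricle lay between 71.1 and 144 TPM. The low libraries of member 41 thus had the same code in every region of a health state, and in the healthy ventricle LV_1001, at 172 TPM, was also the lower of the pair, with LV_1002 at 268 TPM. Its other failing ventricle libraries were at 358, 233 and 277 TPM. It did not pass between health states in any region, with log2 differences from -0.15 to 0.58 and edgeR adjusted p-values from 0.47 to 0.87.

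The next counts are on TPM and were not made on TMM-scaled counts. The same code held the lowest failing library in all 5 regions for 1 of 26 members with a mean of at least 1 TPM in each region, member 41, and for 1.32% of 10760 genes. It held the highest for 4 of the 26, members 2, 8, 44 and 48, and for 0.948% of those genes. In healthy libraries of the 4 regions outside the ventricle, a single code was lowest for 3 of 29 members (2, 41 and 42) and 3.22% of 11705 genes, and highest for 7 (25, 26, 37, 38, 39, 40 and 44) and 4.97% of those genes. For 6 of these 7 the highest libraries were LA_1002, RA_1002, SB_1002 and ST_1002, and for member 25 they were those that end in the code of LA_0920.

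The members were somewhat shorter than other ventricular genes. The length relative to the typical gene, read from the ratio of estimated count to TPM, had a median of 0.664 over the members and 0.851 over the 6909 genes with a healthy LV mean of at least 5 TPM, whose quartiles were 0.528 and 1.34. Of the members 17 lay under the lower quartile, 23 between the quartiles and 8 above the upper one. Matched by value alone, within 1e-09 of the member's highest TPM in every library, the deposited transcript values summed to the gene value with 1 transcript for 28 members and with 2 for 8, and 12 were not matched in this way. For member 30, which had 2, the healthy ratios of the transcripts were 3.66 and 3.91 and the failing ones 2.73 and 3.93.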

How the data were processed

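Per the submitters' processing notes, Trimmomatic 0.39 trimmed the reads and kallisto 0.48.0 quantified them. A genome build was not given in the sources used here, nor an annotation. Gene tables deposited by the authors hold estimated counts and TPM, with Ensembl gene IDs and no symbols. The RefSeq table used here (GRCr8) matched 0 of the IDs, so the gene lists, cell type markers and motifs could not be applied and no sequence is printed. The transcript tables served only to match transcripts that sum to a member's value.

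The members and lists were chosen with earlier results of these data known. Members to be described were the 10 highest by healthy ventricular level and by ratio, those that missed the threshold between failing regions, and up to 5 of the largest differences in each direction between states (mean log2 CPM of at least 1), with at most 2 IDs in each direction. Without symbols only some of these are given in full, and members 29 and 41 were singled out after their values were seen.

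Estimated counts were rounded, filtered (filterByExpr, count minimum 10, total minimum 15), scaled by TMM and tested with edgeR 4.0.16 (robust quasi-likelihood fit, R 4.3.3), each fit restricted to the groups compared and adjusted by Benjamini-Hochberg over all genes tested at 0.05. Standard errors derive from the test statistic. The procedure was tested on simulated data. Alternatives were DESeq2 1.42.0, other size factors, no filter, limma 3.58.1 on log2(TPM + 1) and log2(TPM + 0.1), TMM-scaled TPM, 1 fit of all 38 libraries, each library left out, and the code as a block.

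Deviations of same-code libraries from their group means were correlated between the failing ventricle and the other failing regions. The r ran from 0.224 to 0.362 for the right atrium, 0.109 to 0.361 for the inferior node and 0.158 to 0.391 for the superior node. For the left atrium it ran from 0.061 to 0.377. Libraries of different codes gave -0.309 to 0.272, -0.364 to 0.098, -0.295 to 0.11 and -0.537 to 0.355 in the same order. The same-code and different-code ranges thus overlapped in both atria. Centring each group on its mean lowers the different-code values, so these ranges cannot show a pairing. The code is treated as a number only, and the block by code rests on the titles.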

Additional observations from a re-analysis of the deposited data

Results flagged for a closer look

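Among the 17 members whose values are given by library, 20 libraries lay far from the other 3 of their group, past the critical value of Dixon's test. Chance flags about 1 in 20 groups, and over the 48 members 43 of 423 groups were flagged (10.2%). Levels near 0, where 1 library holds a read and 3 do not, are among them.

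Member 1 was high in LA_0506 (24.9 TPM) and RA_0506 (8.70 TPM) and low in LV_0507 (5659 TPM). Member 4 was high in RA_0506, at 2.63 TPM. Member 25 was high in RA_0920 (256 TPM), SB_0920 (404 TPM) and ST_0920 (137 TPM). Member 28 was high in LA_0409 (1.56 TPM), iSAN0409 (1.58 TPM) and sSAN0409 (2.62 TPM). Members 14 and 17 were high in iSAN0508, at 4.14 and 12.2 TPM. Member 41 was low in LA_0507, at 21.2 TPM, and member 10 was high in RA_1002, at 133 TPM.

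Member 3 was above 0 in a single library of the healthy right atrium (1.46 TPM), the failing superior node (1.48 TPM) and the healthy superior node (1.30 TPM). Member 18 was above 0 in a single library of the failing left atrium (0.0223 TPM), the healthy left atrium (0.0204 TPM) and the healthy right atrium (0.0229 TPM).

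On TPM, member 2 was lower in every failing than in every healthy ventricle library and higher in every failing than in every healthy library of both atria, and the difference between regions was not tested; on TMM-scaled counts its ventricular difference was 0.20, not negative. Member 14 was likewise lower in the failing ventricle and higher in the failing inferior node with no overlap in either, and the difference was not tested.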

How the results depend on the processing

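Counts of members higher in the failing ventricle kept within 1.5 times the value in the report under every alternative run. With 1 library left out they ran from 41 to 46 against the left atrium and 40 to 47 against the right atrium. Against the inferior and the superior node they ran from 44 to 47 and from 40 to 46. With the code as a replicate block they were 42, 45, 45 and 45, against 3.88%, 4.99%, 11.3% and 8.03% of all genes. On log2(TPM + 1), whose median over all genes lay between -1.05 and -0.72, they were 38, 39, 39 and 39. There 0.879%, 0.954%, 1.06% and 0.796% of all genes were higher in the ventricle, in the same order. Between states in the ventricle DESeq2 called 4 members and the fit of all 38 libraries 5, against 0. In the superior node DESeq2 called 15 against 9, and with 1 library left out the count ran from 3 (without ST_0920) to 14 (without sSAN0506). The shares of all genes in these superior node fits and in the other fits with a library left out are not given here. No paired analysis was possible between states because no code occurs in both. With 1 healthy library left out the rule gave lists of 47 to 50 genes, which held 43 (without LV_1002) to 48 of the members. It gave 29 genes at a ratio of 4 and 127 on TMM-scaled TPM, a set that held all 48. Of 100 differences of single members, 63 kept their direction and side of the threshold throughout. In the ventricle the difference between states turned on TPM for member 1 (-0.09 with either pseudocount), member 2 (-0.33 with either) and member 43 (-0.09 with 1 and -0.10 with 0.1), and without LV_0507 for member 2 (-0.09, with a range up to 0.41 over the libraries left out) and member 33 (-0.13, range up to 1.71); the cause was not tested. With 2 healthy ventricle libraries, the spread of that group rests on a single pair.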
